A study of Homo sapiens with 3 samples.

Results

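The HUSH and TRIM28 silencing genes are 7 genes of the machinery that keeps retrotransposons such as LINE-1 (L1) silent. They were taken by name from a fixed list, and 7 of 7 were found among the 23284 genes of the table (TASOR under its older symbol FAM208A). Their expression was examined in HEK293T cells (293T), a human embryonic kidney line, after transfection with dCas9-VP64, a form of Cas9 unable to cut DNA that is fused to a transcriptional activator. All 3 cultures expressed dCas9-VP64. It was combined with a mock sgRNA (the parental guide vector) in the control, with sgL1ASP #1 in the second culture and with sgL1ASP #3 in the third, and both guides target the antisense promoter (ASP) of L1. Each condition had 1 stranded mRNA library, so differences could not be checked against replicates and p-values are not given. Expression was transient and each library is a bulk of the culture. The share of cells that took up the plasmids was not measured here, and fewer cells with a change cannot be told apart from a smaller change in each cell. The values are FPKM, fragment counts scaled to the length of the gene and the size of the library, which can be compared between genes. L1 RNA itself was not analysed here.

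L1 copies are held silent by repressive chromatin, in which histone H3 carries methyl groups on lysine 9. The HUSH complex is built from TASOR, the scaffold, MPHOSPH8 (MPP8), whose chromodomain reads this mark, and PPHLN1 (periphilin), which binds RNA. HUSH works with the methyltransferase SETDB1, with ATF7IP, which binds and stabilizes SETDB1, and with MORC2, an ATPase that compacts chromatin. TRIM28 (KAP1) is brought to retroelements by KRAB zinc finger proteins and in turn recruits SETDB1. HUSH is best known for silencing young L1 copies and newly integrated retroviruses, and TRIM28 for silencing endogenous retroviruses.

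Promoter windows of 300 bases (250 before and 50 from the transcription start, RefSeq, GRCh38.p14) were given for 6 of the 7 genes, the exception being TRIM28. The outermost start was used where a gene had several. The windows of the 3 HUSH core genes, which code for a single complex, are shown. Whether the windows bear on the levels of these genes was not tested. Capitals mark the letters CCAAT and GGGCGG on either strand (ATTGG and CCGCCC on the strand shown). The sequences lie at chr3:56683216-56683515 on the minus strand for FAM208A, at chr13:19633409-19633708 on the plus strand for MPHOSPH8 and at chr12:42325917-42326216 on the plus strand for PPHLN1.
FAM208A: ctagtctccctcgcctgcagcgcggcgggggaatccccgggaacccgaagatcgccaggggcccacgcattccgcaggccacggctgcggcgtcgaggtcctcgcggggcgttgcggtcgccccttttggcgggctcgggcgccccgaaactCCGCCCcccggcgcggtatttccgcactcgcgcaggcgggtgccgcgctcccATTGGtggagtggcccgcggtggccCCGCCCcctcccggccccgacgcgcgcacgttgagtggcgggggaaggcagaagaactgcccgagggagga
MPHOSPH8: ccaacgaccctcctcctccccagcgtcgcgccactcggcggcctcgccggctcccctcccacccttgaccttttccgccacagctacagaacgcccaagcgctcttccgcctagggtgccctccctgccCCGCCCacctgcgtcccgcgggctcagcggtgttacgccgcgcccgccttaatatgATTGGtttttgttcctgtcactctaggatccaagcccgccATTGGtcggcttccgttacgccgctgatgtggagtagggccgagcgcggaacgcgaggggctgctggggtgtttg
PPHLN1: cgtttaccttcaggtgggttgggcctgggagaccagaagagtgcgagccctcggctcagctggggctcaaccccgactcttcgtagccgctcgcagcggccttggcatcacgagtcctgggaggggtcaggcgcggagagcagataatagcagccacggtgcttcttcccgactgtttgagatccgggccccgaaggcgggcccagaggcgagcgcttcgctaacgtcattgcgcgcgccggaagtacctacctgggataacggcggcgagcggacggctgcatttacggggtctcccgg

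These 3 windows are rich in CpG, with 43 CpG in FAM208A, 31 in MPHOSPH8 and 31 in PPHLN1, above the median of 14 and the upper quartile of 28 over 35116 RefSeq promoter windows of the same length. MORC2 had 35, ATF7IP had 24 and SETDB1 had 15. CCAAT on either strand occurred in the windows of MPHOSPH8 and ATF7IP (2 each) and of FAM208A and MORC2 (1 each), and in 34.6% of all windows. GGGCGG on either strand occurred in FAM208A, MORC2 and ATF7IP (2 each) and in MPHOSPH8 (1), and in 45.0% of all windows. The windows of SETDB1 and PPHLN1 held neither. These matches are descriptions of the letters and not binding sites.

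The culture was first checked against marker genes. VIM, a filament gene abundant in this line, had FPKM 807.4 in mock, 903.5 with sgL1ASP #1 and 862.2 with sgL1ASP #3, and 5 of 7 HEK293 markers had mean FPKM at least 1. The exceptions were NEFH and PAX2. Of 6 markers of other cell types, PTPRC was listed at 0 in every library, COL1A1 had FPKM between 1.99 and 2.55, and the other 4 were under 1. The 7 HEK293 markers summed to FPKM 854.3, 954.8 and 911.6, and the 6 other markers to 3.74, 2.89 and 3.09, in mock, sgL1ASP #1 and sgL1ASP #3. The part of these differences in the results below was not tested. Depth was estimated from the spacing of the lowest FPKM at 10400000 reads in mock, 10300000 with sgL1ASP #1 and 8680000 with sgL1ASP #3.

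TRIM28 was the most abundant of the 7 genes. Its FPKM was 205.1 in mock, 206.6 with sgL1ASP #1 and 212.3 with sgL1ASP #3, which placed it between rank 346 and rank 369 of all genes. TRIM28 alone made up between 64.1% and 65.1% of the summed FPKM of the 7 genes, and its level was between 1.79 and 1.87 times the sum of the other 6. The gene is compact. It lies on the plus strand of chromosome 19 from 59055431 to 59062089 in GRCh37 (hg19), a span of 6659 bases, and shares no exon with another annotated gene.

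SETDB1, the enzyme that TRIM28 and HUSH both use, had FPKM 22.9 in mock, 24.8 with sgL1ASP #1 and 23.8 with sgL1ASP #3. It was lowest in mock, and the highest value, with sgL1ASP #1, was 1.08 times the lowest. ATF7IP, its stabilizing partner, had FPKM 8.78, 7.97 and 8.20 in the same order and was highest in mock. SETDB1 was thus between 2.61 and 3.12 times as abundant as ATF7IP at the level of mRNA. SETDB1 lies on chromosome 1 from 150898739 to 150937220 (plus strand) and ATF7IP on chromosome 12 from 14518610 to 14655865 (plus strand).

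Of the HUSH core, PPHLN1 was the most abundant, with FPKM 29.99 in mock, 28.9 with sgL1ASP #1 and 30.7 with sgL1ASP #3. FAM208A had FPKM 21.95, 21.1 and 21.2, and MPHOSPH8 had 12.3, 12.7 and 11.4. The order PPHLN1, FAM208A, MPHOSPH8 held in each of the 3 libraries, with FAM208A at 0.732, 0.731 and 0.692 and MPHOSPH8 at 0.410, 0.439 and 0.373 times the FPKM of PPHLN1. MORC2, the HUSH-associated ATPase, had FPKM 18.7 in mock, 17.6 with sgL1ASP #1 and 18.3 with sgL1ASP #3, between FAM208A and MPHOSPH8. PPHLN1 lies on chromosome 12 from 42632249 to 42853517 (plus strand), FAM208A on chromosome 3 from 56654160 to 56717293 (minus strand), MPHOSPH8 on chromosome 13 from 20207799 to 20247581 (plus strand) and MORC2 on chromosome 22 from 31321117 to 31364760 (minus strand). PPHLN1 shares exon sequence with 1 unnamed lncRNA gene on the same strand, so its FPKM is less certain than that of the others. Exons of CERS2, CCDC66, MORC2-AS1, ZCRB1 and PRICKLE1 overlap SETDB1, FAM208A, MORC2 and PPHLN1 on the opposite strand, which the authors' strand-specific quantification keeps apart.

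The ranges over the 3 libraries gave the order TRIM28, PPHLN1, SETDB1, FAM208A, MORC2, MPHOSPH8, ATF7IP, and none of the 6 pairs of neighbours overlapped. The closest neighbours were SETDB1 and FAM208A, where the lowest SETDB1 value, 22.9 in mock, was 1.05 times the highest FAM208A value, 21.95 in mock. At the estimated depth the counting interval of the first value ran from 21.5 to 24.4 and that of the second from 20.9 to 23.0, so these 2 genes were not separated beyond counting error in mock. Their ranges also overlapped once FPKM sums were made equal between libraries. Across the 3 libraries the highest value of a gene was between 1.03 times (TRIM28) and 1.11 times (MPHOSPH8) its lowest. The median of this ratio over genes with mean FPKM at least 1 was 1.11.

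The main question of the design is whether expression differs with guides that target the L1 ASP. In the paper's reporter assays the guides also acted on the sense promoter of L1, which drives L1 mRNA. Its activity was lower with sgL1ASP #1 and slightly higher with sgL1ASP #3. The part of this in the differences below was not tested. Of the 7 silencing genes, 0 passed 1.5-fold upward and 0 passed it downward with sgL1ASP #1 against mock. The background was 1.76% of 12830 genes with mean FPKM at least 1 higher and 1.79% lower. With sgL1ASP #3 against mock the members also gave 0 and 0, beside 1.75% and 2.05% of all these genes. Between sgL1ASP #1 and sgL1ASP #3 they gave 0 and 0, beside 1.96% higher and 1.82% lower. With 7 genes, a count of 0 is near these backgrounds and is no result about the members. A lower limit of 1.2-fold was passed in either direction by 14.4% of all genes with sgL1ASP #1 against mock, by 14.8% with sgL1ASP #3 against mock and by 14.7% between the guides, and by 0 of the 7 members in each comparison. Genes with low FPKM carry much of that share. Among the 7231 genes with mean FPKM at least 10 it was 5.21%, 5.06% and 4.98%.

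Log2 differences were taken on log2(FPKM + 0.1). With sgL1ASP #1 the highest difference from mock was that of SETDB1, 0.11 (counting interval -0.01 to 0.24), and the lowest that of ATF7IP, -0.14 (-0.29 to 0.01). MPHOSPH8 differed by 0.04, TRIM28 by 0.01, PPHLN1 by -0.05, FAM208A by -0.06 and MORC2 by -0.09. The differences of SETDB1 and ATF7IP stood at percentiles 79.1 and 17.6 of the 12830 genes. Genes with low FPKM widen the spread of that set, and percentiles among genes of like FPKM were not taken. The median over the 7 genes was -0.05, and that of all genes was 0.00.

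With sgL1ASP #3 the range was narrower. SETDB1 was at 0.05 above mock, TRIM28 at 0.05, PPHLN1 at 0.03, MORC2 at -0.03, FAM208A at -0.05, ATF7IP at -0.10 and MPHOSPH8 at -0.10. The median over the 7 genes was -0.03 and that of all genes 0.00. The counting interval of TRIM28, from -0.0013 to 0.0997, came nearest to excluding 0. It was also the narrowest of the 7, since TRIM28 is covered by the most reads. With both guides SETDB1 and TRIM28 were above mock and FAM208A, MORC2 and ATF7IP below it, while MPHOSPH8 and PPHLN1 changed side. The 2 comparisons share the mock library, so a value that is high or low in mock moves both the same way.

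Between the guides, MPHOSPH8 showed the largest difference of the 7 genes, 0.15 higher with sgL1ASP #1 (counting interval -0.04 to 0.33), with FPKM 12.7 against 11.4. PPHLN1 was 0.09 lower with sgL1ASP #1 (-0.27 to 0.10). SETDB1 was 0.06 higher, and MORC2, ATF7IP, TRIM28 and FAM208A were lower by between 0.01 and 0.06. The median was -0.04, beside 0.00 for all genes.

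All 21 differences (7 genes, 3 comparisons) had 95% counting intervals that included 0. These intervals rest on estimated reads, from about 400 for MPHOSPH8 with sgL1ASP #3 to about 6800 for TRIM28 in mock, and they cover counting error and not the spread between cultures. For the interval to exclude 0, a difference had to exceed between 1.03- and 1.04-fold in TRIM28 and 1.09-fold in SETDB1. In MPHOSPH8 it had to exceed between 1.13- and 1.14-fold, depending on the comparison. Smaller differences were not detectable at this depth. The median absolute log2 difference of the 7 genes was 0.057, 0.049 and 0.058 in the 3 comparisons, beside 0.094, 0.095 and 0.093 over genes with mean FPKM at least 1 and about 0.070 over genes with mean FPKM at least 10.

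The direction of these small differences depended on the scaling of the libraries. In the deposited FPKM, 3 of the 7 genes were above mock and 4 below it with either guide. After rescaling each library to an FPKM sum of 1000000, sgL1ASP #1 left 1 gene above mock and 6 below it, and sgL1ASP #3 left 0 and 7. That rescaling moved the median of all genes to -0.09 and -0.12. Relative to the median of all genes, the split was 3 above and 4 below under either scaling. A rescaling shifts nearly all genes of a library alike, so this split could hardly differ.

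Ratios between 2 genes of the same library do not depend on this scaling. Of the 63 ratio differences (21 pairs, 3 comparisons), 3 (4.76%) had 95% counting intervals that excluded 0. That is near the share of such intervals that exclude 0 from counting error alone, so the count is no result about the members. All 3 set SETDB1 with sgL1ASP #1 against mock, share the same SETDB1 values and are named after their values were seen. SETDB1 over ATF7IP went from 2.61 in mock to 3.12 with sgL1ASP #1, a log2 difference of 0.25 (0.06 to 0.45). SETDB1 over MORC2 went from 1.23 to 1.41 (0.20, from 0.03 to 0.38) and SETDB1 over FAM208A from 1.05 to 1.18 (0.17, from 0.01 to 0.33). With sgL1ASP #3 these ratios were 2.90, 1.30 and 1.12, between mock and sgL1ASP #1 in each case, and their intervals against mock included 0. With 1 library per condition these differences have no replicate check.

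The genes most like each member were those with the smallest difference of log2(FPKM + 0.1) in the library where they differed most, over 3 libraries. They were DDOST and ATP5C1 for TRIM28, TAF9B and P4HA2 for SETDB1, TMEM167B and ATXN1L for MPHOSPH8, KANSL3 and RAVER2 for FAM208A, SLC25A17 for PPHLN1, PBRM1 and RRP12 for MORC2, and ZNF764 for ATF7IP. For these genes the largest difference was between 0.0060 (SLC25A17) and 0.037 (ATP5C1). Between 30 genes (TRIM28) and 158 genes (FAM208A) lay within 0.1 of a member in every library, so that likeness over 3 libraries singles out few features.

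Several members belong to families, and the paralogs were set beside them. TRIM28 exceeded its relatives TRIM24, TRIM33 and TRIM66, which share its domain order, in every library. TRIM24 had FPKM 14.99 in mock, 15.6 with sgL1ASP #1 and 15.4 with sgL1ASP #3, TRIM33 had 13.5, 13.4 and 14.4, and TRIM66 had 4.07, 3.75 and 3.77. FPKM of TRIM28 was thus between 13.2 and 13.8 times that of TRIM24. SETDB1 was between 8.71 and 10.4 times as abundant as SETDB2 (FPKM 2.34, 2.39 and 2.73), and ATF7IP between 8.50 and 12.1 times as abundant as ATF7IP2 (1.03, 0.657 and 0.867).

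The other families were more even. FAM208B, the paralog of FAM208A, had FPKM 19.8 in mock, 18.9 with sgL1ASP #1 and 19.3 with sgL1ASP #3, so that FAM208A stood at between 1.10 and 1.11 times its level. MORC4 was above MORC2 in every library, with FPKM 22.2, 24.6 and 23.4, while MORC3 was below it with 12.7, 12.5 and 12.99. MORC1, a germline gene, was listed at 0 in the 3 libraries. CDYL, another chromodomain protein gene, had FPKM 10.1, 10.1 and 9.95, close to MPHOSPH8, and CDYL2 had 1.74, 1.09 and 1.24. Of the 11 genes, 9 had mean FPKM at least 1, and CDYL2 was the 1 gene of these 9 past 1.5-fold downward with sgL1ASP #1 against mock, at -0.62 (counting interval -0.996 to -0.25, from about 93 and 150 reads), against a background of 1.79%. With sgL1ASP #3 it was at -0.45 (-0.83 to -0.07). Both CDYL2 differences share the mock library, so they are not independent of each other, and the mean FPKM of CDYL2 was only 1.36. ATF7IP2, not counted because its mean FPKM was under 1, was 1.57 times as high in mock as with sgL1ASP #1 in FPKM and at -0.58 with the pseudocount (-1.32 to 0.16, from about 24 and 38 reads). MORC4 was at 0.15 with sgL1ASP #1 (0.01 to 0.28) and at 0.07 with sgL1ASP #3 (-0.07 to 0.22). Intervals were taken for all paralogs but MORC1 with both guides, and among so many some can exclude 0 from counting error alone. The differences of CDYL2 and MORC4 have no replicate check.

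Partner genes of the pathway were followed in 5 further lists. Together with the paralogs they held 63 genes, of which 60 had mean FPKM at least 1. Of these 60 genes, 0 passed 1.5-fold upward and 1 (CDYL2) passed it downward with sgL1ASP #1, beside backgrounds of 1.76% and 1.79%. With sgL1ASP #3 there were 0 and 0, beside 1.75% and 2.05%. Counts of 0 or 1 are near these backgrounds and are no result about the partners. The same holds for the counts of 0 in the smaller lists below. The median log2 difference of the 60 genes was 0.00 with sgL1ASP #1 and -0.01 with sgL1ASP #3. Past 1.2-fold in either direction were 3 genes (5%) and 2 genes (3.33%), beside 14.4% and 14.8% of all genes. Most of the partners were well expressed. Among the 49 with mean FPKM at least 10, 1 gene (2.04%) passed 1.2-fold with each guide, beside 5.21% and 5.06% of all genes at that level, and a count of 1 is too small to set the partners apart.

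HUSH-linked factors include ZNF638, which brings HUSH to unintegrated retroviral DNA, the NEXT complex genes ZCCHC8, RBM7 and SKIV2L2, which target RNA for decay, and CNOT1 of the deadenylase complex. Of the 8 genes, 4 were above and 4 below mock with either guide, and 0 passed 1.5-fold. The most abundant was SAFB, with FPKM 62.9 in mock, 58.9 with sgL1ASP #1 and 56.8 with sgL1ASP #3. KIAA1551 (now RESF1, listed as C12orf35), a SETDB1 partner, was the least abundant with 3.41, 3.66 and 3.93.

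The list of other lysine 9 methyltransferases and heterochromatin readers held 10 genes, such as the SUV39H and EHMT enzymes and the HP1 genes CBX1, CBX3 and CBX5. By mean FPKM it ran from SUV39H1, with FPKM 15.6, 14.9 and 15.4 in mock, sgL1ASP #1 and sgL1ASP #3, to CBX3, with 96.5, 92.7 and 93.7. Below mock were 7 genes with sgL1ASP #1 and 6 with sgL1ASP #3, with medians of -0.06 and -0.03, and 0 passed 1.5-fold. The lowest log2 difference was that of SUV39H2, named after its value was seen, at -0.23 and -0.28.

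TRIM28 acts with the NuRD complex, which joins the remodellers CHD3 and CHD4 to the deacetylases HDAC1 and HDAC2, and with the SUMO pathway. Of the 18 genes of this list, sgL1ASP #1 left 10 above mock and 8 below it, sgL1ASP #3 left 8 and 10, and 0 passed 1.5-fold. HDAC1 had the highest mean FPKM, with 202.4 in mock, 201.9 with sgL1ASP #1 and 198.2 with sgL1ASP #3. RBBP7, named after its values were seen, was close to it and above it with sgL1ASP #1, with FPKM 198.3, 205.6 and 195.99. MBD2 had the lowest mean, with 4.63, 4.87 and 5.48.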

How the data were processed

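RNA-seq libraries of HEK293T cells (1 each for mock, sgL1ASP #1 and sgL1ASP #3) were analysed, and each value column was assigned to its library (0 left over). The authors deposited FPKM per gene. They mapped 75-base single-end reads to hg19 with TopHat2 2.0.13, Bowtie2 2.2.3 and SAMtools 0.1.19 and quantified genes with Cuffdiff (Cufflinks 2.2.1) in strand-specific mode. The gene annotation and the scaling between libraries are not given in the sources used here.

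FPKM was used without rescaling. The members and lists were chosen with earlier results of these data known. Log2 differences used a pseudocount of 0.1, which understates changes of low genes. Calls were made at 1.5-fold, the threshold of the methods, over genes whose mean FPKM was 1 or more. Alternatives were pseudocounts of 0.01 and 1, 2 rescalings, thresholds of 1.2- and 2-fold and other filters. Named were the 7 members, the 2 genes most like each (some are not reported here), all paralogs, and per list the most and least abundant gene and any gene past 1.5-fold with both guides.

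Depth was estimated from genes with 1 annotated transcript longer than 1000 bases (GENCODE 44 on GRCh37), after taking off a fragment of 200 bases. It rests on 35 genes in the peak for mock, 55 for sgL1ASP #1 and 43 for sgL1ASP #3. Reads per gene used the canonical transcript, which may not be the one expressed. Counting intervals are 1.96 standard errors of Poisson counts. Older symbols were matched through RefSeq names (GRCh38.p14). Python 3.11.15, NumPy 2.4.6, pandas 2.3.3 and matplotlib 3.10.9 were used.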

Additional observations from a re-analysis of the deposited data

How the results depend on the processing

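No paired analysis was possible because the 3 libraries are 1 per condition, and for the same reason no library could be left out. With no replicates, a member's difference was taken as moved when it shifted to a value outside its counting interval. A count, share or depth was taken as moved when it changed beyond 1.5 times. The number of members past 1.5-fold stayed at 0 in each comparison and direction with either pseudocount, either rescaling and thresholds of 1.2- and 2-fold. The 2-fold count follows from the 0 at 1.2-fold, and the pseudocounts move genes of this level little, so neither is a further check. Of 84 alternative member differences, 3 moved, each after rescaling to an FPKM sum of 1000000, namely TRIM28 to -0.08 with sgL1ASP #1 and -0.07 with sgL1ASP #3, and FAM208A to -0.17 with sgL1ASP #3. The median over the members against mock was then -0.15 with either guide. The 1 partner gene lower with sgL1ASP #1 became 0 with a pseudocount of 1 and with the 2-fold threshold. With the 1.2-fold threshold, 2 of the 60 partner genes were higher and 1 lower with sgL1ASP #1 than with mock. With sgL1ASP #3, 0 were higher and 2 lower than with mock. Between the guides, 2 were higher with sgL1ASP #1 than with sgL1ASP #3 and 0 lower. Of all genes, 14.4%, 14.8% and 14.7% passed this threshold in either direction, and genes with low FPKM carry much of those shares. The share of all genes past 1.5-fold in either direction was 3.55%, 3.804% and 3.77% for sgL1ASP #1 against mock, sgL1ASP #3 against mock and sgL1ASP #1 against sgL1ASP #3. It was 9.31%, 9.56% and 9.77% with no filter on low values, 1.87%, 2.04% and 2.02% with each library at FPKM 1 or more, and 1.52%, 1.52% and 1.56% with mean FPKM at least 10. With no fragment length taken off, the depth estimates were 9210000, 9440000 and 8130000 reads in mock, sgL1ASP #1 and sgL1ASP #3.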

Other observations

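Enzymes that remove the lysine 9 mark were also followed. Of 11 demethylase genes, 7 were above and 4 below mock with sgL1ASP #1 (median log2 difference 0.04), and 4 were above and 7 below with sgL1ASP #3 (median -0.03), with 0 past 1.5-fold. KDM1A had the highest mean, with FPKM 79.6 in mock, 75.8 with sgL1ASP #1 and 71.9 with sgL1ASP #3, and KDM4D the lowest with 1.962, 2.37 and 2.07. Past 1.2-fold with sgL1ASP #1 were 2 of the 11 genes, beside 14.4% of all genes, a count near that background. They were KDM3A, with FPKM 26.5, 32.0 and 26.3, and KDM4B, with 5.98, 7.29 and 5.84, both named after their values were seen.

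Histone H3.3, deposited by ATRX and DAXX at silent repeats and by HIRA at active genes, is coded by H3F3A and H3F3B. H3F3B had FPKM 183.1 in mock, 182.6 with sgL1ASP #1 and 185.7 with sgL1ASP #3, while H3F3A was listed at about 0.002 in each library. At the estimated depth this is far under the FPKM that 1 read gives in a transcript of usual length, so it cannot be read as a level. H3F3A has near-identical copies in the genome, and their part in this value was not tested. ATRX was the least abundant of the other genes of this list, with FPKM 15.7, 15.7 and 14.6, and 0 of the 4 genes with mean FPKM at least 1 passed 1.5-fold.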
